A study of Mus musculus with 6 samples.

Results

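The insulin-like growth factor axis was followed here as 10 genes of the 31053 features counted in each library. The members were taken by symbol from the feature lists: the ligands Igf1 and Igf2, the receptors Igf1r and Igf2r, and the binding proteins Igfbp2 to Igfbp7. Single-cell RNA was counted as unique molecular identifiers (UMIs, 1 per captured mRNA molecule) in 4 libraries of cells freed from the cortical surface, which carries the leptomeninges, and in 2 libraries of bone-associated cells from the skull, which carry the dura. All cells came from adult C57BL6 mice with no other allele or treatment, and live cells were sorted as DRAQ5-positive and propidium iodide-negative. Tissue of several mice of both sexes was pooled for each run, so the library and not the animal is the replicate, and every p-value below measures the spread between libraries. The mice were not perfused, so blood cells were in the samples. The sources differ on the dissociation: the labels name papain and the ventricular-subventricular zone, the methods collagenase D and dispase II on surface and skull tissue.

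Insulin-like growth factors are secreted ligands that act through the receptor tyrosine kinase IGF1R and, downstream, through insulin receptor substrates, PI3 kinase and AKT. Most of the ligand outside cells is held by binding proteins, which carry it, limit its access to the receptor or release it when proteases cut them. The meninges and the choroid plexus are known sources of IGF2 and IGFBP2 around the brain, and IGF1 is known as a product of fibroblasts and of macrophages.

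After filtering, 8680 cells were kept, 5272 from the cortical surface and 3408 bone-associated, with library medians of 5453 to 9525 UMIs per cell. Cells were clustered again for this work and named from marker genes, so the classes are rebuilt and are called mesenchymal-like, endothelial-like and so on. They are not the study's own clusters, and 16.8% of cells stayed unnamed. Cortical surface libraries 3 and 4 stood apart: over all barcodes, 84.6% and 71.9% of their UMIs were from hemoglobin genes, against at most 0.520% in the other 4 libraries, and over kept cells 17.9% and 12%. Any pair of libraries shared 0 to 9 barcodes. The mesenchymal-like class held 282 bone-associated and 243 cortical surface cells. The name was checked on genes outside the marker list: 100% of the bone-associated and 96.3% of the cortical surface mesenchymal-like cells had a UMI of Col1a1, a fibrillar collagen, and 74.5% and 81.9% had one of the receptor Pdgfra. In T or NK-like cells, which should lack it, the Pdgfra shares were 0.333% and 0.172%.

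Levels are UMIs per 1000000 UMIs of the class in a library (CPM), with hemoglobin genes left out of the total, and are given as mean ± SD over libraries. They are compared between cells for 1 gene at a time. Of 26 combinations of class and preparation with at least 2 libraries, a mesenchymal-like group held the highest mean for 6 of the 10 members. These were Igf1, Igf2r, Igfbp5 and Igfbp6 in bone-associated cells and Igf2 and Igfbp2 in cortical surface cells. For Igf2 and Igf2r the range overlapped that of the next group. How often a mesenchymal-like group was highest over all genes was not counted, so the 6 of 10 is a description of the members only.

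**Figure D1:**
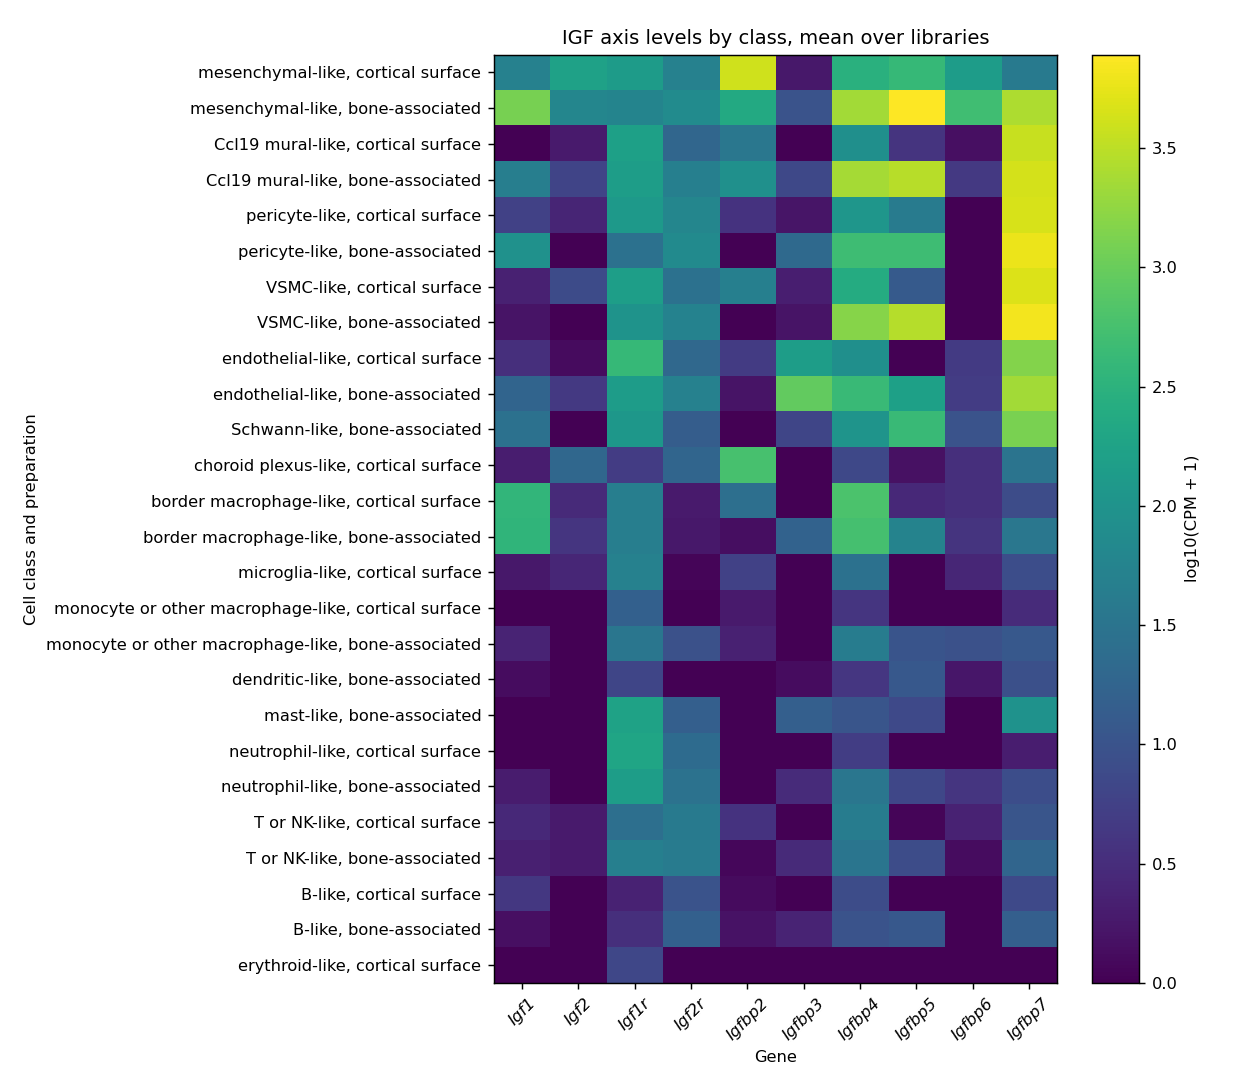
Heat map of the mean level of each of the 10 members (columns) in each class and preparation (rows), as log10(CPM + 1) in colour. Igfbp2 is at 4124 CPM in cortical surface mesenchymal-like cells and Igfbp5 at 7806 CPM in bone-associated mesenchymal-like cells, while Igfbp3 reaches 897 CPM in bone-associated endothelial-like cells and at most 20.5 CPM outside that class.

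Igf1, the ligand that mediates much of the growth hormone response, was at 1262 ± 382 CPM (SD, n = 2) in bone-associated mesenchymal-like cells. Next came the border macrophage-like cells of the cortical surface at 360 ± 40.5 CPM (n = 4) and of the bone-associated libraries at 349 ± 22.9 CPM (n = 2), whose ranges overlapped. All other groups had means of at most 93.2 CPM. Igf2, the imprinted fetal ligand, was at 169 ± 173 CPM (n = 4) in cortical surface mesenchymal-like cells and 60.5 ± 27.1 CPM (n = 2) in bone-associated ones, again with overlapping ranges. It stood at 18.7 ± 1.25 CPM (n = 2) in cortical surface choroid plexus-like cells.

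Igf1r, the signalling receptor, was at 407 ± 46.8 CPM (n = 4) in cortical surface endothelial-like cells, apart from every other ranked group. Neuron-like cells, with enough cells in only 1 library, were not ranked and are given further below. The next groups overlapped with each other: cortical surface neutrophil-like cells at 196 ± 35.7 CPM (n = 2), mast-like cells at 175 ± 5.31 CPM (n = 2) and the cortical surface Ccl19-positive mural-like cells at 160 CPM. Igf2r, the mannose 6-phosphate receptor that clears IGF2, had no group that stood apart: the 4 highest means lay between 52.2 and 74.1 CPM and the ranges of neighbours in that order overlapped.

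Of the binding proteins, Igfbp2 was at 4124 ± 929 CPM (n = 4) in cortical surface mesenchymal-like cells, at 575 ± 34.9 CPM (n = 2) in cortical surface choroid plexus-like cells and at 229 ± 78.5 CPM (n = 2) in bone-associated mesenchymal-like cells, with no overlap between neighbours. Igfbp3, the main serum carrier, was at 897 ± 30.0 CPM (n = 2) and 146 ± 123 CPM (n = 4) in bone-associated and cortical surface endothelial-like cells. Igfbp6, which prefers IGF2, was at 507 ± 156 CPM (n = 2) and 142 ± 139 CPM (n = 4) in the mesenchymal-like cells of the same preparations and at most 8.83 CPM elsewhere.

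Igfbp4, a carrier cut by the protease PAPPA, was at 2300 ± 1095 CPM (n = 2) in bone-associated Ccl19-positive mural-like cells and 2239 ± 442 CPM (n = 2) in bone-associated mesenchymal-like cells, which overlapped. Without doublet removal the former value was 896 CPM, so the order of these groups rests on that step. Igfbp5, which also binds extracellular matrix, was at 7806 ± 161 CPM (n = 2) in bone-associated mesenchymal-like cells. Igfbp7, a weak binder found in vascular basement membranes, had its 6 highest means, 3689 to 6610 CPM, in the mural classes of both preparations. Those are the vascular smooth muscle-like (VSMC-like), pericyte-like and Ccl19-positive mural-like cells.

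Igfbp2 and Igfbp5 are neighbours in the genome and were opposite in the mesenchymal-like cells of the preparations, so the sequence just before each start is shown. On GRCm38 (GENCODE M21) Igfbp2 lies at chr1:72824503-72852474 on the plus strand and Igfbp5 at chr1:72857932-72874884 on the minus strand, with 5457 bases between their 3′ ends. The 250 bases before the RefSeq start (GRCm38.p6) are printed 5′ to 3′ on the strand of the gene. Capitals mark the GC box GGGCGG and the E-box CACGTG.
Igfbp2, chr1:72824230-72824479, plus strand: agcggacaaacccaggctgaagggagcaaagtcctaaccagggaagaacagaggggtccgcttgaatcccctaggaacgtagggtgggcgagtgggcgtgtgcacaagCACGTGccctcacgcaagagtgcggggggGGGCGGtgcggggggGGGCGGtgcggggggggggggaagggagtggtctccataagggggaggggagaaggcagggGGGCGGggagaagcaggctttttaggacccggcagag
Igfbp5, chr1:72874866-72875115, minus strand: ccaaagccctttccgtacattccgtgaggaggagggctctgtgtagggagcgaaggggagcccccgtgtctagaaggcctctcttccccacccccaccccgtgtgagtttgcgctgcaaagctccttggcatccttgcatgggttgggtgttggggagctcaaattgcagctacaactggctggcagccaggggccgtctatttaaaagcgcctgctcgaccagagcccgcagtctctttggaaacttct
RefSeq lists another start for Igfbp2, whose window at chr1:72825137-72825386 held no match and is not printed. The printed Igfbp2 window held 3 GC boxes, at -113, -98 and -37 from the start, and 1 E-box at -142. The Igfbp5 window held no match to either or to TATAAA. Searched on both strands, GGGCGG was in 32.7% of 32851 windows of this length, CACGTG in 6.02% and TATAAA in 12.4%. A match is a string of letters and not a bound site.

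The other members, all protein coding, lie apart from these. Igf2 is at chr7:142650766-142666816 (minus strand), 72622 bases from the long noncoding RNA H19 at chr7:142575529-142578143, and Igf1r is at chr7:67952827-68233668 (plus). Igf1 is at chr10:87858265-87937042 (plus), Igf2r at chr17:12682406-12769664 (minus), Igfbp7 at chr5:77349240-77408041 (minus) and Igfbp6 at chr15:102144362-102149511 (plus). Igfbp3 is at chr11:7206086-7213923 (minus) and Igfbp4 at chr11:99041244-99054392 (plus). Igf2 overlaps the antisense gene Igf2os, Igf1 overlaps Igf1os, and Igf2r overlaps the antisense RNA Airn. Igfbp7 overlaps Polr2b and Gm34648 on the other strand. The strand setting of the counting was not stated in the sources used here, so reads of these pairs may not be fully separable.

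The study set leptomeningeal against dural cells, and the first comparison took the mesenchymal-like cells of the cortical surface over those of the bone-associated libraries. Of the 10 members, 9 passed the detection filter, which asks for a UMI in more than 10% of cells in 1 of the groups. Among those 9, 3 were higher and 4 lower on the cortical surface by the call used throughout: an edgeR adjusted p under 0.05 and a change of at least 1.3 on the log2 scale. Over all 9539 genes tested, 14.2% were called, 5.69% higher and 8.46% lower. The median log2 fold change was -1.72 over the 9 members and -0.02 over all genes.

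**Figure D2:**
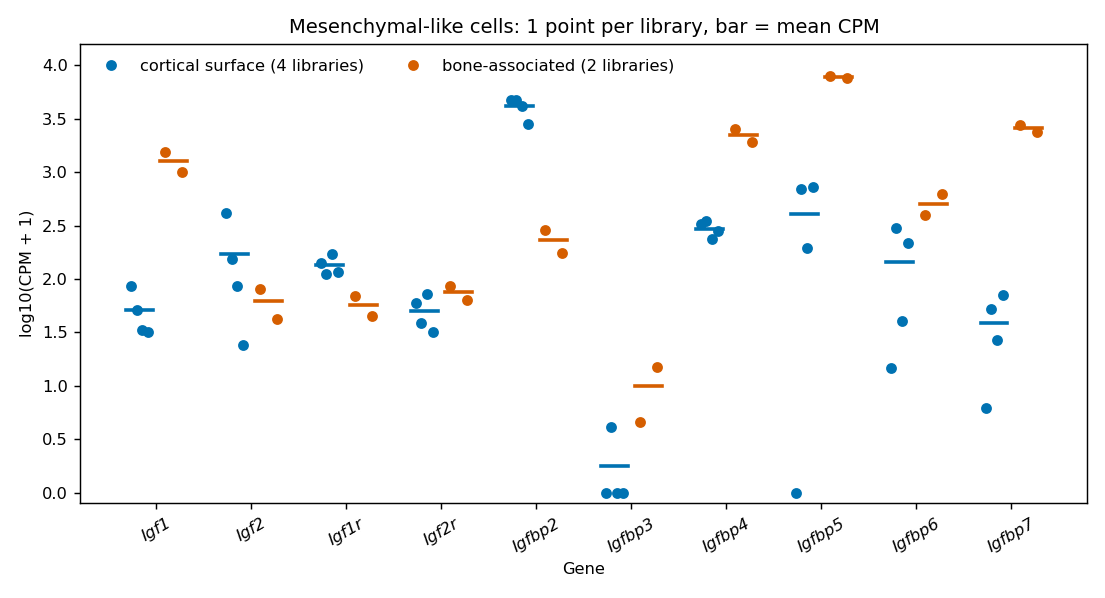
Level of each member, as log10(CPM + 1), in the mesenchymal-like cells of each of the 2 bone-associated and 4 cortical surface libraries, 1 point per library. Igf1 lies between 993 and 1532 CPM in the bone-associated libraries and between 30.8 and 85.4 CPM in the cortical surface libraries, and Igfbp2 the other way round, at 173 to 284 against 2794 to 4780 CPM.

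Of the ligands, Igf1 was at 1532 and 993 CPM in bone-associated libraries 1 and 2 and at 85.4, 50.1, 32.5 and 30.8 CPM in cortical surface libraries 1 to 4. Every cortical surface library lay below both bone-associated ones, with a log2 fold change of -4.46 ± 0.30 (SE, edgeR adjusted p = 7.85e-09) and a 25.4-fold difference of the means. Igf2 was at 79.7 and 41.4 CPM in the bone-associated libraries and at 417, 152, 84.6 and 23.1 CPM on the cortical surface. Cortical surface libraries 1 to 3 were above both bone-associated ones and library 4 was below them, so the groups overlapped.
The log2 fold change of Igf2 was 1.75 ± 0.57 (edgeR adjusted p = 0.0409), and the call was lost under 5 of 18 alternatives. It was lost without bone-associated library 1 (log2 2.17) and without bone-associated library 2 (log2 1.37), fits that leave 1 library in that group. It was also lost without cortical surface library 1 (log2 0.92, edgeR adjusted p = 0.165). The same held with DESeq2 (adjusted p = 0.546) and with at least 1000 genes per cell (edgeR adjusted p = 0.0529).

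Of the receptors, Igf1r was at 68.8 and 43.5 CPM in the bone-associated libraries and at 140, 109, 169 and 115 CPM on the cortical surface, with no overlap. Its log2 fold change of 1.32 ± 0.31 (edgeR adjusted p = 0.00475) was just past the limit of size. The call was lost under 9 of 18 alternatives, among them without bone-associated library 2 (log2 1.09) and without cortical surface library 3 (log2 1.21). Igf2r was at 85.1 and 63.0 CPM against 58.1, 37.7, 71.5 and 30.8 CPM and was not called (log2 -0.55 ± 0.32, edgeR adjusted p = 0.296).

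Of the binding proteins, Igfbp2 was higher on the cortical surface. It was at 284 and 173 CPM in the bone-associated libraries and at 4780, 4746, 4176 and 2794 CPM on the cortical surface, an 18-fold difference of the means (log2 4.23 ± 0.40, edgeR adjusted p = 3.87e-07). After each cell was thinned to 1500 UMIs, which equalises depth, a UMI of Igfbp2 was found in 93.8% of the cortical surface and 15.8% of the bone-associated mesenchymal-like cells. Without thinning these shares were 98.4% and 27.7%, at median depths of 8034 and 14702.5 UMIs. In T or NK-like cells, at medians of 6168 and 6109 UMIs, they were 0.861% and 0.166%.

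Igfbp4, Igfbp5 and Igfbp7 were lower on the cortical surface. Igfbp4 was at 2552 and 1926 CPM in the bone-associated libraries and at 325, 344, 234 and 277 CPM on the cortical surface (log2 -2.86 ± 0.25, edgeR adjusted p = 1.55e-07). Igfbp7 was at 2782 and 2371 CPM against 5.13, 50.8, 26.0 and 69.3 CPM (log2 -6.13 ± 0.47, edgeR adjusted p = 3.23e-08), a 68.1-fold difference of the means. For both genes every cortical surface library lay below both bone-associated ones. Igfbp6 was at 397 and 617 CPM against 13.7, 301, 39.0 and 216 CPM, without overlap. It missed the threshold (log2 -1.72 ± 0.60, edgeR adjusted p = 0.0560) and passed it under 10 of 18 alternatives, without cortical surface library 2 (log2 -2.87, edgeR adjusted p = 0.00106) and without library 4 (log2 -1.84, edgeR adjusted p = 0.0335) among them. The 10 include the fit without the Slc47a1-led cluster described below, which was bound to lower Igfbp6. Igfbp3 was not tested, with 54 UMIs in the bone-associated and 4 in the cortical surface cells.

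Igfbp5 was at 7919 and 7692 CPM in the bone-associated libraries and at 0, 696, 195 and 724 CPM in cortical surface libraries 1 to 4. The 0 stands for no UMI in 65 cells, where 3 UMIs would be 5.13 CPM. The means differed 19.3-fold (log2 -4.22 ± 0.87, edgeR adjusted p = 0.00141), and the groups did not overlap, although DESeq2 gave an adjusted p of 0.205. A UMI of Igfbp5 was found in 81.4% of bone-associated and 5.76% of cortical surface mesenchymal-like cells thinned to 1500 UMIs, against 1.5% of bone-associated T or NK-like cells. Unthinned, the shares were 92.9%, 8.64% and 3.99%. Igfbp5 thus passed the detection filter only through the bone-associated cells.

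Nearly all of the Igfbp5 UMIs of the cortical surface mesenchymal-like cells sat in 11 cells. These formed a cluster led by Igfbp5 itself, Slc47a1, Penk, Slc4a10, Nov and Rspo3, with 4 cells from library 2, 1 from library 3 and 6 from library 4, while the IGF members were not used for clustering. The cluster was split from a larger one with leading markers of more than 1 class. Median depth was 11587 UMIs in its cells and 8018.5 in the other 232. The 11 cells held 970 of the 1028 Igfbp5 UMIs of the 243 mesenchymal-like cells, or 94.4%. Their pooled level was 7548 CPM, against 28.4 CPM in the other 232 cells. Of the 970 UMIs, 879 came from the 5 cells of libraries 2 and 3, at 9852 CPM, and 91 from the 6 cells of library 4, at 2316 CPM against 33.1 CPM in the other 18 cells of that library.

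The same 11 cells differed from the other 232 in several members, given here as pooled levels with no test. Igfbp6 was at 1284 against 131 CPM and Igfbp7 at 226 against 26.0 CPM, and in library 4 alone at 662 against 22.1 CPM and 153 against 33.1 CPM. The 92 UMIs of Igfbp4 all came from the 4 cells of library 2, at 1102 against 292 CPM, while the 6 cells of library 4 had none, against 397 CPM in its other cells. Igf2 was at 7.78 against 224 CPM, resting on 1 UMI, and Igfbp2 at 895 against 4831 CPM (229 against 3906 CPM in library 4). Of the 456 Igf2 UMIs of the other cells, 244 came from library 1, which held none of the 11. In library 4 Igf2 was at 0 against 33.1 CPM, the latter on 3 UMIs. Igf1r was at 7.78 against 129 CPM, also resting on 1 UMI. Without this cluster, an alternative chosen after seeing the data, the log2 fold change of Igfbp5 between preparations became -8.37 (edgeR adjusted p = 6.76e-10), and Igfbp6 was called at -2.48 (edgeR adjusted p = 0.00105). Then 15.7% of 9548 genes were called. The 11 cells held 94.4% of the Igfbp5 and 38.1% of the Igfbp6 UMIs of the cortical surface mesenchymal-like cells. Leaving them out was thus bound to lower both genes, and nothing is concluded from these 2 changes. The arachnoid-like and pial-like sub-clusters that the design foresaw could not be named from their markers, and that comparison gave no value.

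The bone-associated mesenchymal-like cells fell into 2 clusters, described here with no test. One of 192 cells was led by Comp, H19, Cilp2 and Matn4, genes of cartilage and tendon matrix among them, and the other of 90 cells by Apod, Inmt, Lum and Dcn. Igf1 was at 2070 and 1251 CPM in libraries 1 and 2 of the Comp-led cluster and at 477 and 330 CPM in the Apod-led one. Igfbp5 was at 9700 and 8269 CPM in the Comp-led cells and at 4429 and 6210 CPM in the Apod-led cells. Both genes were thus higher in the Comp-led cells of each library. Igfbp6 ran the other way, at 252 and 378 CPM against 681 and 1230 CPM, as did Igfbp4, at 1693 and 1445 CPM against 4236 and 3162 CPM. Igfbp7 had pooled levels of 1838 CPM in the Comp-led and 3874 CPM in the Apod-led cells.

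Markers of other classes also differed between the mesenchymal-like cells of the preparations. The summed level of 7 pericyte markers was 241 to 355 CPM in bone-associated and 4455 to 8254 CPM in cortical surface libraries. Vtn alone gave 4384 to 8100 CPM of the latter, and the other 6 summed to 66.3 to 94.2 and 71.5 to 154 CPM. The 8 border macrophage markers summed to 6.76 to 7.24 CPM against 43.1 to 618 CPM, and the 7 VSMC markers to 613 to 750 CPM against 61.6 to 270 CPM. The endothelial marker Cdh5 was at 9.47 to 21.7 against 137 to 192 CPM, while the other 8 endothelial markers summed to 51.7 to 130 against 7.70 to 47.0 CPM. The 6 astrocyte markers summed to 107 to 123 CPM in bone-associated and 1374 to 1815 CPM in cortical surface libraries, with Slc1a3 at 870 to 1203 CPM of the latter and with Aqp4 and Aldoc at 0. The 6 neuron markers, nearly all Meg3, summed to 442 to 536 against 22.2 to 70.1 CPM. The 8 microglia markers summed to 5728 to 7912 against 2062 to 2494 CPM and the 6 choroid plexus markers to 41.4 to 121 against 123 to 166 CPM. Of the microglia sums, Sparc alone gave 4497 to 6770 and 1528 to 1824 CPM. P2ry12, Siglech and Gpr34 were at 0 in the bone-associated libraries. Whether the mesenchymal-like cells carried these markers themselves was not tested, nor was the part of RNA from other classes in the values above.

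Vessels were present in both preparations, and the same question was asked of their cell types.

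**Figure D3:**
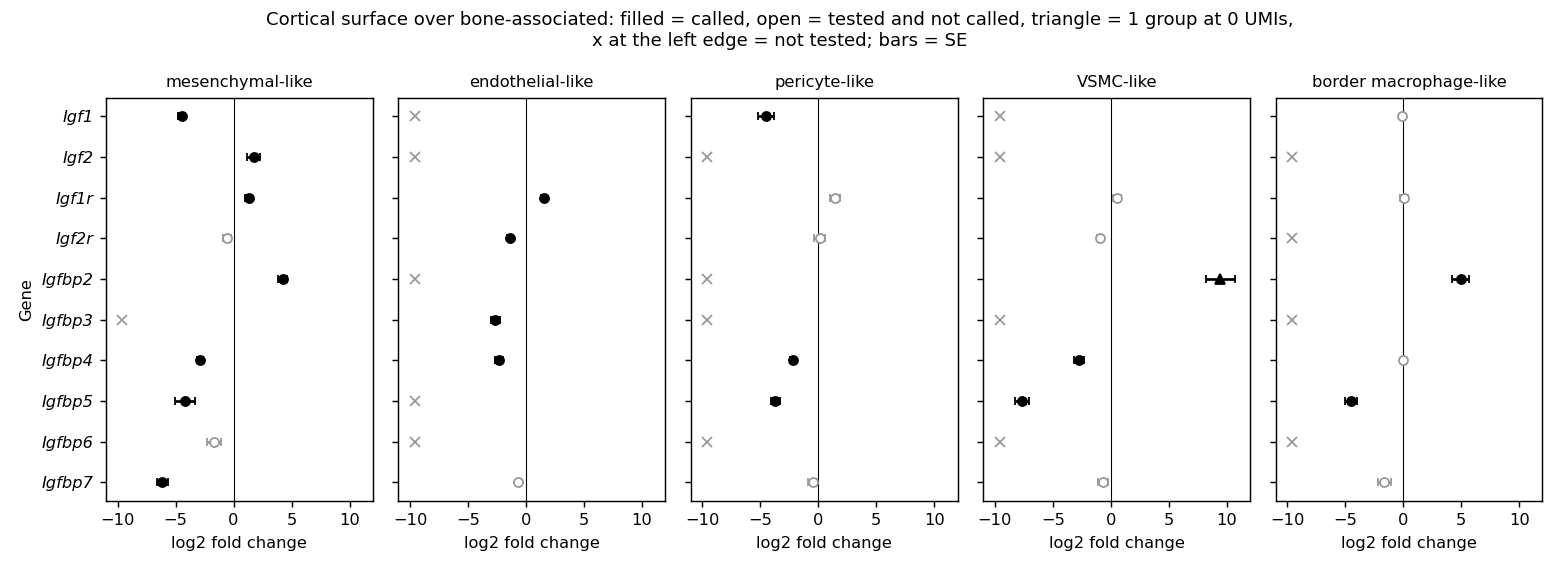
Log2 fold change, cortical surface over bone-associated, of each tested member in 5 classes, with the standard error as bars, filled points for calls, open points for members tested and not called, triangles where 1 group has 0 UMIs and crosses for members not tested. Igfbp5 lies between -3.73 and -7.69 in mesenchymal-like, pericyte-like, VSMC-like and border macrophage-like cells, and Igf1 is at -4.46 in mesenchymal-like, -4.55 in pericyte-like and -0.11 in border macrophage-like cells.

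In the 595 bone-associated and 535 cortical surface endothelial-like cells, Igf1r was higher and Igfbp3, Igfbp4 and Igf2r were lower on the cortical surface. These were 1 and 3 of the 5 members tested, while 6.73% of 7678 genes were called, 2.24% higher and 4.49% lower. The median log2 fold change was -1.37 over the 5 members and 0.02 over all genes. Igf1r was at 191 and 90.5 CPM in the bone-associated libraries and at 431, 439, 419 and 338 CPM on the cortical surface (log2 1.51 ± 0.25, edgeR adjusted p = 0.000213), and the call was lost without bone-associated library 2 (log2 1.12). Igfbp3 was at 876 and 918 CPM against 303, 185, 37.8 and 60.1 CPM (log2 -2.63 ± 0.41, edgeR adjusted p = 0.000113). Neither gene overlapped between preparations.

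Igfbp4 was at 344 and 533 CPM in bone-associated endothelial-like cells and at 138, 122, 9.45 and 70.4 CPM on the cortical surface (log2 -2.32 ± 0.36, edgeR adjusted p = 0.000120), a call lost with DESeq2 (log2 -2.43, adjusted p = 0.0841). Igf2r was at 53.9 and 45.1 CPM against 15, 22.8, 25.2 and 15.4 CPM (log2 -1.37 ± 0.25, edgeR adjusted p = 0.000671). Its size came just under the limit without bone-associated library 1 (log2 -1.30 after rounding) and without cortical surface library 1 (log2 -1.27). Igfbp7 was at 2121 and 2426 CPM against 1387, 1761, 1364 and 1390 CPM and missed the threshold (log2 -0.67 ± 0.22, edgeR adjusted p = 0.0552). Igfbp5 was not tested: it was at 260 and 64.8 CPM in the bone-associated libraries, with no UMI in the 535 cortical surface cells, which makes it at least 178-fold higher in the former against a floor of 3 UMIs over the group (0.914 CPM). The remaining members were not tested either, with 7 cortical surface and 85 bone-associated UMIs of Igf1, 1 and 15 of Igf2, 15 and 2 of Igfbp2 and 10 and 21 of Igfbp6.

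The makeup of the class differed between preparations, and the members differed between its clusters.

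**Figure D4:**
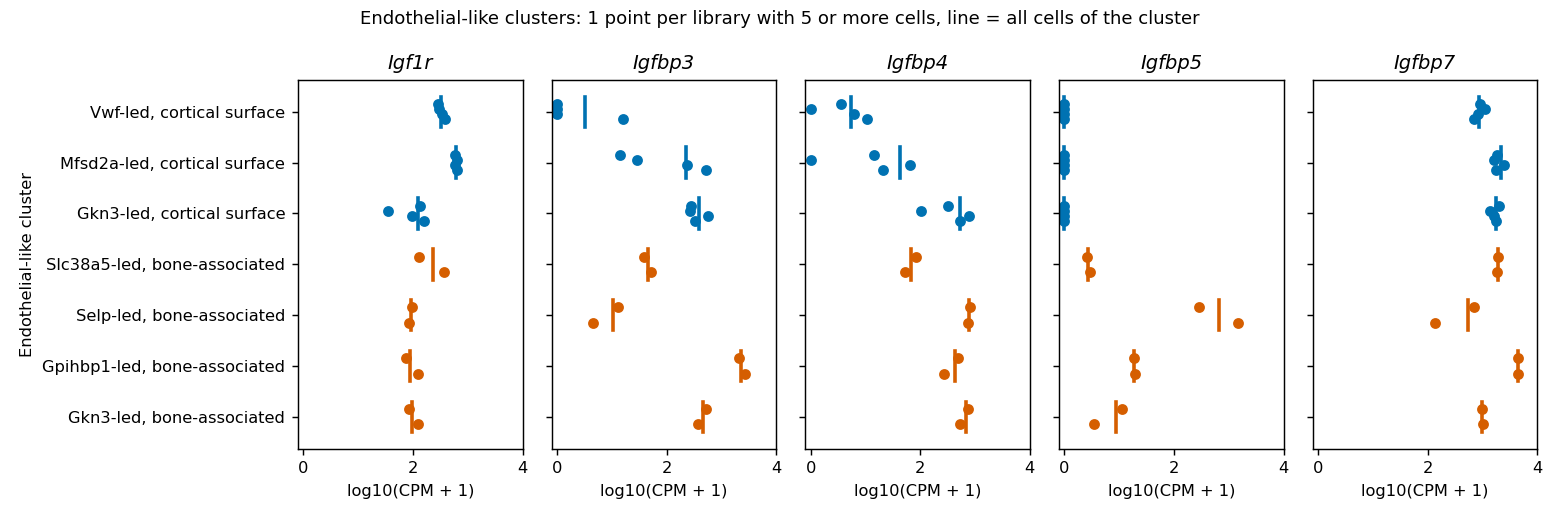
Level of Igf1r, Igfbp3, Igfbp4, Igfbp5 and Igfbp7, as log10(CPM + 1), in the endothelial-like clusters of each preparation, with 1 point per library of at least 5 cells and a line for all cells of the cluster. Igfbp3 is at 2678 and 2066 CPM in the Gpihbp1-led bone-associated cluster, and Igf1r at 586 to 626 CPM in the Mfsd2a-led cortical surface cluster.

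Igfbp3 was highest in the bone-associated cluster whose leading genes were Gpihbp1, a capillary lipoprotein lipase anchor, Btnl9 and Igfbp3 itself, at a pooled 2237 CPM in 239 cells. In clusters led by the arterial gene Gkn3 it was at 470 CPM in 143 bone-associated cells and at 393 CPM in 78 cortical surface cells. In the Vwf-led and Slc38a5-positive cluster of 216 cortical surface cells it was at 2.26 CPM. In the 241 Mfsd2a-led cortical surface cells it was at a pooled 228 CPM, and at 522, 231, 28.4 and 13.3 CPM in libraries 1 to 4. No cortical surface cluster was led by Gpihbp1.

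Igf1r was at 598 CPM in 241 cortical surface cells led by Mfsd2a, a lipid transporter of the blood-brain barrier, with 586 to 626 CPM over the 4 libraries. It was at 322 CPM in the Vwf-led cortical surface cells and at 121 CPM in the Gkn3-led ones. Among bone-associated clusters it was at 235 CPM in the 123 Slc38a5-led cells (363 and 127 CPM by library) and at 88.7 to 96.3 CPM in the other three. Igfbp5 came from the 90 bone-associated cells led by the venous genes Selp and Vwf, at 1499 and 280 CPM by library, while the other 3 bone-associated clusters had pooled levels of 1.73 to 17.5 CPM.

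With Gkn3-led cells alone, an alternative chosen after seeing the data that left 5 libraries, 0 of the 5 members were called, at 4.47% of 7579 genes. There Igf1r was at a log2 fold change of 0.32 ± 0.32, Igfbp3 at -0.20 ± 0.28, Igfbp4 at -0.28 ± 0.28 and Igf2r at -0.09 ± 0.50. Igfbp7 was at 0.85 ± 0.27 (edgeR adjusted p = 0.0602). The 8 mesenchymal markers summed to 87.5 to 89.0 CPM in bone-associated and 15.8 to 58.3 CPM in cortical surface endothelial-like cells, and their part in the class values was not tested.

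In pericyte-like cells, 65 bone-associated and 247 from the cortical surface, Igf1, Igfbp4 and Igfbp5 were lower on the cortical surface. These were 3 of 6 tested members with none higher, against 3.82% lower and 1.69% higher of 6913 genes (5.51% called). Igfbp5 was at 671 and 278 CPM in the bone-associated libraries and at 14.8, 18.8, 80.9 and 46.7 CPM on the cortical surface (log2 -3.73 ± 0.39, edgeR adjusted p = 3.39e-07). Igfbp4 was at 494 and 476 CPM against 134, 131, 70.8 and 100.05 CPM (log2 -2.20 ± 0.26, edgeR adjusted p = 1.90e-06). Both were separate between the preparations.

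Igf1 was called on few molecules and passed the detection filter only through the bone-associated cells. It had 30 UMIs in the bone-associated and 3 in the cortical surface pericyte-like cells, a ratio per UMI total of 23.6 with a 95% counting interval of 7.33 to 121. Igf1r missed the threshold, at 0 and 53.9 CPM against 119, 102, 152 and 133 CPM (log2 1.41 ± 0.45, edgeR adjusted p = 0.0637). Library 1 of the bone-associated pair held 14 cells, so its 0 allows up to 38 CPM. Igf2r (log2 0.10 ± 0.48) and Igfbp7 (log2 -0.49 ± 0.37) were not called. The other 4 members were not tested, with 2 cortical surface and 0 bone-associated UMIs of Igf2, 4 and 0 of Igfbp2, 1 and 4 of Igfbp3 and none of Igfbp6. Mesenchymal markers summed to 2139 to 2608 CPM in the bone-associated and 697 to 994 CPM in the cortical surface pericyte-like cells, led by Col3a1, and their part in these values was not tested.

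In VSMC-like cells, 267 bone-associated and 330 in the 3 cortical surface libraries with at least 10 such cells (1, 2 and 4), Igfbp4 and Igfbp5 were lower and Igfbp2 higher on the cortical surface. These were 3 of 6 tested members, at 5.09% of 8269 genes called, 1.72% higher and 3.37% lower. Igfbp5 was at 3410 and 2338 CPM in the bone-associated libraries and at 22.6, 12.5 and 0 CPM on the cortical surface, a 246-fold difference of the means (log2 -7.69 ± 0.60, edgeR adjusted p = 0.000137). Igfbp4 was at 1557 and 1486 CPM against 318, 295 and 121 CPM (log2 -2.76 ± 0.45, edgeR adjusted p = 0.00534), and the call was lost without bone-associated library 1 (edgeR adjusted p = 0.0652).

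Igfbp2 had no UMI in the 267 bone-associated VSMC-like cells and 267 UMIs on the cortical surface, at 83.9, 58.8 and 0 CPM. It passed the detection filter only through the cortical surface cells, which fixed its direction. The mean was at least 52.0-fold higher against a floor of 3 UMIs over the group, but library 4, with 20 cells, was at 0 and overlapped. The call was lost without bone-associated library 1 (edgeR adjusted p = 0.0637) and with DESeq2 (adjusted p = 0.280). Igf1r stood at 102 and 97.1 against 216, 147 and 83.8 CPM (log2 0.51 ± 0.34), Igf2r at a log2 fold change of -0.95 (edgeR adjusted p = 0.0929) and Igfbp7 at -0.69 (edgeR adjusted p = 0.516), none of them called. All 20 cells of library 4 came from a cluster led by Olfr558, and without that cluster 6.35% of 8328 genes were called, with Igfbp2 higher and Igfbp4 and Igfbp5 lower as before. Not tested were Igf1, with 6 cortical surface and 2 bone-associated UMIs, Igf2 with 5 and 0, Igfbp3 with 6 and 2, and Igfbp6 with none.
The 7 pericyte markers summed to 514 to 593 CPM in bone-associated and 741 to 4713 CPM in cortical surface VSMC-like cells, the 9 endothelial markers to 175 to 197 against 256 to 578 CPM and the 8 border macrophage markers to 33.2 to 42.6 against 36.1 to 391 CPM. The 8 mesenchymal markers overlapped, at 424 to 449 against 270.1 to 547 CPM. The part of such RNA in these values was not tested.

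Ccl19-positive mural-like cells, 86 bone-associated and 254 from the cortical surface, were described without a test. Igfbp4 was at 3074 and 1526 CPM in the bone-associated libraries and at 50.2 to 116 CPM on the cortical surface. Igfbp5 was at 4547 and 1455 CPM against 0 to 6.55 CPM. Igf1 was at 56.9 and 33.7 CPM, with no UMI in the 254 cortical surface cells, which allows up to 1.94 CPM. All 3 were separate between preparations, as was Igf2r, at 43.8 to 49.8 against 14.7 to 21.8 CPM. The other members overlapped, with Igfbp7 between 3350 and 4666 CPM in the 6 libraries. How many of all genes were separate in this class was not counted, so this is a description of the members only. The 8 mesenchymal markers summed to 4482 to 7732 CPM in the bone-associated and 1476 to 1939 CPM in the cortical surface Ccl19-positive mural-like cells. Their part in these values was not tested.

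Border macrophage-like cells held the next highest levels of Igf1, and macrophages are a known source of the ligand. Between preparations, 2 of 6 tested members were called in border macrophage-like cells, 1 higher and 1 lower on the cortical surface, at 6.58% of 7669 genes (1.56% higher, 5.02% lower). Igf1 was at 333 and 365 CPM in 113 bone-associated cells and at 390, 318, 332 and 399 CPM in 690 cortical surface cells, with overlap (log2 -0.11 ± 0.21, edgeR adjusted p = 0.799). Igfbp4 was at 543 and 574 CPM against 641, 751, 569 and 524 CPM, also overlapping (log2 0.01 ± 0.24). Igf1r was at 61.3 and 29.1 CPM against 42.3, 31.9, 43.7 and 66.0 CPM (log2 0.06 ± 0.37).

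The called members of this class were low, and each passed the detection filter only through the preparation where it was higher. Igfbp5 was at 52.5 and 55 CPM in bone-associated and at 0.870, 5.04, 0 and 1.43 CPM in cortical surface border macrophage-like cells (log2 -4.54 ± 0.51, edgeR adjusted p = 0.000302). Igfbp2 was at 0 and 0.809 CPM against 23.6, 34.8, 24.7 and 20.1 CPM, or 1 UMI against 164, a ratio of 40.7 with a 95% counting interval of 7.20 to 1617. Its call was lost without bone-associated library 2 (edgeR adjusted p = 0.0880). In T or NK-like cells of the same libraries Igfbp5 was at 8.11 and 6.12 CPM in the bone-associated libraries and Igfbp2 at 0 to 9.20 CPM on the cortical surface. Mesenchymal markers summed to 109 to 222 CPM in the bone-associated and 73.2 to 93.7 CPM in the cortical surface border macrophage-like cells. Choroid plexus markers, nearly all Ttr, summed to 105 to 123 against 9.49 to 1072 CPM. Endothelial markers summed to 93.9 to 530 against 222 to 294 CPM, and without Egfl7 to 10.5 to 433 against 7.17 to 21.8 CPM. The part of such RNA here was not tested. Igfbp7 was not called (log2 -1.62 ± 0.58, edgeR adjusted p = 0.109). Not tested were Igf2, with 18 cortical surface and 3 bone-associated UMIs, Igf2r with 3 and 2, Igfbp3 with 0 and 8 and Igfbp6 with 10 and 7.

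Border macrophage-like and microglia-like cells of the cortical surface were compared within libraries. Igf1, Igfbp4 and Igfbp2 were higher in the border macrophage-like cells, 3 of the 4 members tested, while 17.4% of 7340 genes were called, 9.5% higher and 7.9% lower. Igf1 and Igfbp2, with 2 and 7 UMIs in the 581 microglia-like cells, passed the detection filter only through the border macrophage-like cells. The filter thus fixed the direction of both. Igf1 was at 390, 318, 332 and 399 CPM in the 690 border macrophage-like cells and at 0, 1.97, 1.25 and 0 CPM in the 581 microglia-like cells (log2 9.22 ± 0.33, edgeR adjusted p = 2.10e-14). That is 2105 UMIs against 2, a ratio of 619 with a 95% counting interval of 171 to 5114. Igfbp4 was at 621 ± 99.2 CPM against 27.1 ± 3.92 CPM (log2 4.66 ± 0.17, edgeR adjusted p = 2.90e-14).

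Igfbp2 was at 25.8 ± 6.34 CPM against 4.72 ± 5.48 CPM in these cells (log2 3.55 ± 0.52, edgeR adjusted p = 1.08e-05). Igf1r was at 46.0 and 50.5 CPM and was not called (log2 0.18 ± 0.22, edgeR adjusted p = 0.545). The other members were not tested: Igf2r had 3 UMIs in the 690 and 1 in the 581 cells, Igf2 18 and 2, Igfbp5 15 and 0, Igfbp6 10 and 4, Igfbp7 53 and 11 and Igfbp3 none. Library 1 held 38 microglia-like cells with a median of 1842 UMIs, so its 0 for Igf1 allows up to 17.9 CPM.

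Mesenchymal-like and endothelial-like cells of the cortical surface, also compared within libraries, differed in every one of the 9 members tested. Of these, 6 were higher and 3 lower in the mesenchymal-like cells, where 26.9% of 8510 genes were called, 13.5% in each direction. Igf1, Igf2, Igfbp2 and Igfbp6 were found in 0.187% to 2.80% of the endothelial-like cells, and Igfbp3 in 0.412% of the mesenchymal-like cells. Those members passed the detection filter only through the class where they were higher, so the filter fixed their direction. Igfbp2 was at 4124 against 3.77 CPM (log2 9.99 ± 0.30, edgeR adjusted p = 3.38e-16). Igf2 had 457 UMIs against 1, a ratio of 692 with a 95% counting interval of 124 to 27386.

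Igfbp6 was at 142 against 3.58 CPM (log2 5.98), Igf1 at 49.7 against 2.37 CPM (log2 4.58) and Igfbp4 at 295 against 85.0 CPM (log2 1.87). Igf2r was at 49.5 against 19.6 CPM (log2 1.31 ± 0.30, edgeR adjusted p = 0.00109). Its call was lost under 4 of 15 alternatives, among them without cortical surface library 1 (log2 1.10), without library 3 (log2 1.23) and without the 11 Slc47a1-positive cells (log2 1.29). Lower in the mesenchymal-like cells were Igfbp3 at 0.770 against 146 CPM (log2 -6.53), Igfbp7 at 37.8 against 1475 CPM (log2 -5.43) and Igf1r at 134 against 407 CPM (log2 -1.57). Igf2r and Igfbp4 were thus higher in the mesenchymal-like cells, and the signalling receptor and Igfbp7 higher in the endothelial-like cells. For the ligands, Igfbp2, Igfbp6 and Igfbp3 the filter fixed the direction, so no split of ligands and receptor is read from them. Igfbp5, found in 8.64% of the mesenchymal-like cells, was not tested: it had 1028 UMIs there and 0 in the endothelial-like cells, at least 442-fold higher against a floor of 3 UMIs over the group, with 94.4% of them in the 11 Slc47a1-positive cells.

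Whether the difference between preparations was larger in one of these classes was tested as an interaction over all 10 members, with 9.76% of 10128 genes called, 4.58% higher and 5.17% lower. Igfbp7 was called at a log2 difference of -5.65 ± 0.40 (edgeR adjusted p = 1.39e-13), its change being -6.13 in mesenchymal-like and -0.67 in endothelial-like cells. Igf2 was called at 4.55 ± 0.98 (edgeR adjusted p = 0.000861) on 1 cortical surface and 15 bone-associated UMIs in the endothelial-like cells. Igfbp5 was called at 6.39 ± 1.24 (edgeR adjusted p = 0.000266), but rested on the 11 Slc47a1-positive cells: without them it was at 2.24 (edgeR adjusted p = 0.380). The cortical surface endothelial-like cells had 0 UMIs of Igfbp5, so both values depend on the prior count and give no bound. For Igf1r, called higher in both classes, the difference was -0.41 ± 0.28 (edgeR adjusted p = 0.424), and for Igfbp4, called lower in both, it was -0.53 ± 0.36 (edgeR adjusted p = 0.416). The remaining members were not called either: the difference was -1.55 for Igf1 (edgeR adjusted p = 0.215), 0.69 for Igf2r, 1.24 for Igfbp2, -0.31 for Igfbp3 and -0.99 for Igfbp6, the last 4 with edgeR adjusted p of 0.232 to 0.862.

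Classes outside these comparisons add a few levels. The choroid plexus makes cerebrospinal fluid, and its cells carried Igfbp2 at 599 and 550 CPM in cortical surface libraries 3 and 4 and at 1743 CPM in 13 cells of bone-associated library 1, whose median was 78286 UMIs. In these 3 libraries Igf2 was at 17.8, 19.6 and 99.9 CPM. Schwann-like cells of the bone-associated libraries carried Igfbp5 at 444 and 438 CPM and Igfbp7 at 1109 and 1434 CPM. Igf1r was at 140 to 221 CPM in neutrophil-like cells of both preparations and at 179 and 172 CPM in mast-like cells. In 21 neuron-like cells of 1 cortical surface library, thinned to equal depth, 42.9% had a UMI of Igf1r, at 413 CPM. The cortical surface endothelial-like cells thinned in the same way were close to this, at 38.5% and 445 CPM.

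Another 52 genes of the pathway were read from the same fits: other ligands and receptors, binding protein proteases, imprinted neighbours and mRNA-binding proteins, receptor substrates and the PI3 kinase, AKT and mTOR genes. In mesenchymal-like cells 38 were tested, of which 10 were lower and 0 higher on the cortical surface, with a median log2 fold change of -0.50. Over all genes tested, 8.46% were lower and 5.69% higher, with a median of -0.02. H19, an imprinted RNA beside Igf2, was at 1397 CPM in the bone-associated and 6.35 CPM in the cortical surface cells (log2 -6.71 ± 0.54, edgeR adjusted p = 4.74e-08). Pappa, the protease that cuts IGFBP4, had 212 UMIs against 3, a ratio of 36.0 with a 95% counting interval of 12.2 to 176. The adaptor Grb14 had 50 UMIs against 2, a ratio of 12.8 with a 95% counting interval of 3.35 to 108, and Igf2bp2, which binds Igf2 mRNA, 45 against 2, a ratio of 11.5 with a 95% counting interval of 3 to 97.7. Pappa, Grb14 and Igf2bp2, which are among the 10 lower genes, passed the detection filter only through the bone-associated cells. The filter thus fixed their direction.

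In endothelial-like cells 1 of 30 was higher and 3 lower, against 2.24% and 4.49% of all genes: Grb14 at a log2 fold change of 1.68, and Stc1, an inhibitor of PAPPA, at -2.01, Airn at -1.88 and the insulin receptor Insr at -1.43. In pericyte-like cells 2 of 28 were lower (3.82% of all genes), Stc1 at -2.47 and the transcription factor Foxo1 at -1.71, and in VSMC-like cells 1 of 34 (3.37%), Foxo1 at -1.40. In border macrophage-like cells 1 of 27 was lower (5.02% of all genes), H19 with 53 bone-associated UMIs against 1, a ratio of 214 with a 95% counting interval of 36.7 to 8594. H19 passed the detection filter there only through the bone-associated cells, so the filter fixed its direction.

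Between classes, 3 of 25 pathway genes were lower in border macrophage-like than in microglia-like cells, against 7.9% of all genes: the endocytic receptor Lrp1 at a log2 fold change of -2.59, the mTOR partner Rptor at -1.70 and Pik3cb at -1.46. In cortical surface mesenchymal-like over endothelial-like cells, 9 of 32 were higher and 5 lower, against 13.5% of all genes in each direction, among them Lrp1 at a log2 fold change of 6.43. The receptor substrates Irs1 and Irs2 had 27 UMIs against 1, a ratio of 40.9 with a 95% counting interval of 6.74 to 1674, and 32 against 2, a ratio of 24.2 with a 95% counting interval of 6.18 to 209. Grb14 had 2 mesenchymal-like against 347 endothelial-like UMIs, a ratio of 115 with a 95% counting interval of 31.5 to 950 in favour of the latter. Irs1 and Irs2 passed the detection filter only through the mesenchymal-like cells and Grb14 only through the endothelial-like cells. The filter thus fixed the direction of all of these. In the interaction 2 of 40 were higher and 5 lower, against 4.58% and 5.17% of all genes, with H19 at -7.28, Grb14 at -5.77, Lrp1 at -2.60 and Pik3cb at 2.37.

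The genes most alike to each member were found by Pearson's r of log2(CPM + 10) over the 26 class means, among 14431 genes with at least 50 UMIs. The points share libraries and depth, so r is a description. Igf2 was most like Pdgfra (r = 0.970), the sodium-sulfate carrier Slc13a4 and Dnah7b, and Igfbp2 most like Pnmal2 (r = 0.974), Igf2 (r = 0.917) and Dnah7b. Igfbp3 was most like Dll1 (r = 0.972), Mmrn2 and Gpihbp1, and Igfbp7 most like Prss23 (r = 0.979) and the basement membrane collagens Col4a2 and Col4a1. Igfbp5 was most like the collagens Col6a1 (r = 0.905), Col1a1 and Col6a3, and Igfbp6 most like Slc26a7 (r = 0.989), Hhip and Dact2.

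The other members had lower values. Igf1 was most like the collagenase Mmp13 (r = 0.879), Gpx3 and Egfr, and Igf1r most like Golim4 (r = 0.860), Klf7 and Cpd. Igf2r was most like Senp6 (r = 0.801), Tbrg1 and Airn, the last of which overlaps it, and Igfbp4 most like Sec24d (r = 0.837), Kdelc2 and Il11ra1.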

How the data were processed

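The authors deposited 1 matrix of raw UMI counts per gene and cell barcode for each of 6 Chromium 3′ libraries, aligned to mm10; the labels name Cell Ranger 3 and the matrix headers 6.1.2. The study's own clusters, made with scran and Seurat and, for the cortical surface, Harmony, were not used here. The members and lists were chosen with earlier results of these data known.

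Barcodes were kept from 500 genes upward and up to 10% of mitochondrial UMIs, and 124 doublets left out at 0.8% per 1000 cells. Free RNA was not corrected. Cells of each preparation were clustered without the members of the IGF axis (2000 variable genes, 30 principal components, 15 neighbours, Leiden resolution 1.5; Python 3.11.15, scikit-learn 1.9.0, leidenalg 0.10.2) and named from at least 3 leading markers. Stated shares of cells, floors (3 UMIs) and 95% exact intervals cover counting error only.

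UMIs were summed per library and class with at least 10 cells and tested with edgeR 4.0.16 (R 4.3.3), TMM and the quasi-likelihood test, on genes found in more than 10% of cells in 1 of the groups. A gene found in few cells of 1 group could pass only through the group where it was higher, so the filter then fixed its direction. P-values were adjusted by Benjamini-Hochberg over all genes tested, and SE is the log2 fold change over the root of F. Classes of the same library were fitted with the library as a block, since each library gave both (residual correlations 0.135 to 0.390 in 4 libraries). On simulated data, 95 of 100 genes changed by 2 and 100 of 100 changed by 3 on the log2 scale were recovered in the mesenchymal-like comparison, with 6 false calls among 9539 genes, and 98 and 100 of 100 with 1 false call among 7340 in the macrophage and microglia comparison. Every simulated gene was given the same dispersion between libraries, so these rates do not cover genes with a wider spread. Among the members, Igf2 (169 ± 173 CPM), Igfbp5 (404 ± 363 CPM) and Igfbp6 (142 ± 139 CPM) in cortical surface mesenchymal-like cells had a wider spread. So did Igfbp7 (37.8 ± 28.1 CPM) and Igf1 (49.7 ± 25.4 CPM) in the same cells. Alternatives were DESeq2 1.42.0, other normalization, filters, cell cut-offs, clustering and leaving out each library. The rule names all 10 members in every comparison, tested or not, with at most 4 called pathway genes by size and the 3 most alike genes. Of the features, 30934 matched GENCODE M21 on GRCm38, and promoters were read from RefSeq.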

Additional observations from a re-analysis of the deposited data

Results flagged for a closer look

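Igfbp7 in endothelial-like cells stood apart in 1 library: it was at 1761 CPM in cortical surface library 2, with the other 3 at 1364 to 1390 CPM. The gap to the nearest library was 0.935 of the range, above Dixon's critical value for 4 samples. This was 1 of 34 groups tested, and chance gives about 1 in 20.

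The difference between preparations was unequal in mesenchymal-like and endothelial-like cells for 3 members, by a test of that difference in edgeR. On the log2 scale it was -5.65 for Igfbp7, called under all 18 alternatives, 4.55 for Igf2 and 6.39 for Igfbp5. Igf2 lost the call when cells were thinned (edgeR adjusted p = 0.0623) and without the library block (edgeR adjusted p = 0.0943). Igfbp5 lost it under 5 of 18 alternatives, among them without the 11 Slc47a1-positive cells (log2 2.24, edgeR adjusted p = 0.380), and its size depends on the prior count, since the cortical surface endothelial-like cells had 0 UMIs.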

How the results depend on the processing

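Over 924 alternative fits of the members, 841 kept the direction and the side of the threshold, 39 lost a call, 16 gained one and 28 changed sign. The changes of sign were in 8 tests of members that were not called as reported or under those alternatives. Between preparations these were Igfbp7 in endothelial-like cells (Gkn3-led cells alone, log2 0.85), Igf2r in pericyte-like cells (DESeq2 -0.12, replicate block -0.16, at most 20% mitochondrial UMIs -0.24, at least 1000 genes -0.15, without 1 library -0.79 to 0.79), and in border macrophage-like cells Igf1 (without 1 library -0.22 to 0.093), Igf1r (DESeq2 -0.025, replicate block -0.26, without 1 library -0.49 to 0.40) and Igfbp4 (DESeq2 and relative log expression -0.013, at least 1000 genes -0.088, no doublet removal -0.061, members allowed in clustering -0.040, without 1 library -0.13 to 0.18). In the interaction they were Igfbp2 (without 1 library -0.78 to 2.26), Igfbp4 (without 1 library -1.01 to 0.0035) and Igfbp3 (DESeq2 0.35, no library block 0.0069, libraries clustered singly 0.060, members allowed in clustering 0.0061, thinned 1.66, without 1 library -4.65 to 1.32). Of 34 member calls, 21 held under every alternative in which the member was tested. Alternatives in which a member failed the detection filter were not counted. Igf1 in pericyte-like cells was such a case after thinning, found in 3.13% of bone-associated and 0% of cortical surface cells. Thinning to 1500 UMIs, which leaves fewer UMIs, moved every count of called genes by over 1.5 times: from 1350 to 566 in mesenchymal-like, 517 to 250 in endothelial-like, 381 to 165 in pericyte-like, 421 to 117 in VSMC-like and 505 to 134 in border macrophage-like cells between preparations, 1277 to 674 for border macrophage-like over microglia-like, 2293 to 1074 for mesenchymal-like over endothelial-like and 988 to 324 for the interaction. With all genes that had a UMI, a larger set, the counts were 934 (endothelial-like), 801 (VSMC-like), 883 (border macrophage-like) and 2035 (over microglia-like). DESeq2 called 198 genes in pericyte-like cells and 475 in the interaction, and the cause was not tested. In Gkn3-led endothelial-like cells alone, with fewer cells and libraries, 339 genes were called and Insr reversed, to a log2 fold change of 0.038. Without doublet removal Igfbp4 was at 896 CPM in bone-associated Ccl19-positive mural-like cells and Igfbp5 at 8364 CPM in bone-associated mesenchymal-like cells.

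Leaving out 1 library gave 1005 to 1432 called genes in mesenchymal-like, 448 to 549 in endothelial-like, 166 to 395 in pericyte-like (lowest without bone-associated library 2), 128 to 553 in VSMC-like (128 without bone-associated library 1, 179 without library 2, 252 without cortical surface library 1) and 315 to 519 in border macrophage-like cells (lowest without bone-associated library 2). The ranges were 1212 to 1413 over microglia-like cells, 2119 to 2442 for mesenchymal-like over endothelial-like cells and 567 to 993 for the interaction (lowest without bone-associated library 2). The preparations share only a replicate number, with residual correlations of 0.0114 to 0.252 in 2 pairs. With that number as a block, 586 genes were higher and 891 lower in mesenchymal-like cells (2 and 5 members), and 182 and 305, 124 and 230, 232 and 342, and 154 and 399 in the endothelial-like, pericyte-like, VSMC-like and border macrophage-like cells. Without the library block the interaction gave 380 and 387 genes and only 1 member, Igfbp7; Igf2 then had an edgeR adjusted p of 0.0943 and Igfbp5 of 0.252. The planned comparison of pial-like and arachnoid-like cells gave no value, since neither could be named. With 2 bone-associated libraries and 24 to 33 mesenchymal-like cells in 3 of the 6 libraries, small differences were not detectable at this depth.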
